A study of Sus scrofa with 12 samples.

Results

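Liver transcripts of German Landrace pigs labelled with high aggressiveness were compared between animals of high and of low stress response. The animals were taken by their labels alone, which left 6 of the 12 pigs in the series: 3 with high stress response, called HH1 to HH3, and 3 with low stress response, called LH1 to LH3. HH3 and LH3 were female and the other 4 were male, so each group held 1 female and 2 males. The 6 pigs of low aggressiveness, 3 with high stress response (HL1 to HL3) and 3 with low stress response (LL1 to LL3), also 1 female and 2 males each, entered the same fit, where they add to the filter, the sex term and the estimate of the spread, and are otherwise described only to show where the aggressive pigs differ. All 12 animals were described as adults of the same breed and no treatment was labelled. Total RNA of each liver was hybridised to 1 Affymetrix porcine array, and the series asks how psychosocial stress is reflected in the liver. How either trait was scored, and how long before sampling, is not in the labels used here.

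The liver answers stress hormones and inflammatory cytokines through well known programs. Glucocorticoids act on the hepatocyte through their nuclear receptor and favour the making of glucose from amino acids, while interleukin signals that pass through STAT3 turn on the acute phase plasma proteins. Most plasma proteins are folded in the endoplasmic reticulum (ER), and a rising folding load is known to induce the chaperones of that compartment through the unfolded protein response. The liver also makes cholesterol, turns it into bile acids and oxidises drugs with cytochrome P450 enzymes.

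Values are the deposited probe set signals, a linear intensity with no unit, and fold changes are differences of log2(signal + 16), high over low stress response, with the standard error (SE) from limma, which fits all probe sets at once. A gene is represented by the tested probe set with the highest mean. Signals ran from 0.149 to 66150 over all arrays, and the median per array lay between 93.3 and 117. Hepatocyte markers were strong in all 6 animals. Their summed signal over 13 genes was 495100 to 512000 in the high and 434100 to 613200 in the low stress response group, and their log2 fold changes lay between -0.08 and 0.15. Log2 signals of pairs of arrays correlated at 0.953 to 0.962 within the high stress response group, at 0.956 to 0.966 within the low group and at 0.945 to 0.968 between the groups. Among these 6, the females HH3 and LH3 had the lowest median correlations with the other 11 arrays, 0.953 and 0.957, and results that rest on them are given with and without them. The log2 ratio of 3′ to 5′ signal, a reading of RNA integrity averaged over 3 control genes, was 2.29 ± 0.111 in the high and 2.27 ± 0.122 in the low stress response group (SD, n = 3 each, exact permutation test, two-sided, p = 0.70, adjusted p = 0.80 over 7 array measures, where 0.10 is the smallest p that 3 against 3 can give). Each animal was a separate sample, so p-values measure the spread between these animals, and precision is limited by their number.

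No gene passed the test between high and low stress response. Of 15957 probe sets, 0 had an adjusted p under 0.05 in limma, and the smallest adjusted p was 0.0776, shared by PRKAG3 and 1 probe set of ZNF281. At an unadjusted p under 0.05 there were 974 probe sets (6.1%), where 798 would be expected if none differed. At an unadjusted p under 0.01 there were 182 (1.14%), of which 110 were higher (0.689%) and 72 lower (0.451%) in the high stress response group. That split was set by few animals. Without HH3 there were 44 higher and 59 lower, without HH1 112 and 113, and without LH3 100 and 42, while centring each array on its median gave 89 and 98. All directions below are therefore values in these 6 livers and not calls. In bulk liver, fewer cells of a type and less RNA per cell cannot be told apart.

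Genes for protein folding in the ER were higher in the high stress response group throughout the list. Of 18 measured genes 11 were higher at an unadjusted p under 0.05 and 0 lower, against 3.58% and 2.4% of all 5803 genes, and in 11 the 3 animals of high stress response all lay above the 3 of low, against 6.63% of all genes. The median log2 fold change of the list was 0.47, against 0.01 over all genes, and the range was 0.00 to 0.89. HYOU1, an ER chaperone of the Hsp70 family, had signals of 2780, 2563 and 4284 in HH1 to HH3, against 1950, 1693 and 1569 in LH1 to LH3. HH3 was far the highest of the 6, and the lowest animal of high stress response lay above the highest of low. The log2 fold change of HYOU1 was 0.85 ± 0.20 (SE, n = 3 each, limma, adjusted p = 0.795).

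MANF, a secreted protein induced by ER stress, had signals of 9311, 10200 and 16520 in the high and 6729, 7304 and 6308 in the low stress response group. The groups did not overlap and HH3 again stood above HH1 and HH2. DNAJB9, a co-chaperone of HSPA5, had 2898, 2525 and 3880 in the high and 1127, 2076 and 1866 in the low group, a log2 fold change of 0.89 ± 0.25 (SE), the highest of the list. A second probe set of DNAJB9 had 0.94 and another 0.45. HSPA5, the main chaperone of the compartment, had 26470, 29800 and 33360 in the high and 21200, 21030 and 20360 in the low group. Its 3 low stress response animals were nearly equal, and the log2 fold change was 0.51 ± 0.17 (SE, n = 3 each, limma, adjusted p = 0.801). HSPA13, an Hsp70-like protein of microsomes that was not in the list, had 717, 469 and 1227 in the high and 246, 355 and 315 in the low group, a log2 fold change of 1.26 ± 0.26 (SE).

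The lowest values of the list were those of the lectin chaperones CANX (calnexin) and CALR (calreticulin), of XBP1, a transcription factor of the response, and of PDIA6, a disulfide isomerase, all named after their values were seen. CANX, CALR and XBP1 each had a log2 fold change of 0.17 and PDIA6 had 0.00. The list score, the mean over members of the log2 value minus that gene's mean over the 12 arrays, was 0.13, 0.09 and 0.56 in HH1 to HH3 and -0.18, -0.21 and -0.26 in LH1 to LH3. All 3 animals of high stress response lay above all 3 of low. HH3 weighed most: without HH3 the median of the list was 0.36 and 4 of the 18 genes had an unadjusted p under 0.05, and without LH3 the median was 0.36 with 6. Fitted on the 6 arrays alone, 8 genes had such a p with sex in the fit and 7 without it. Between the 2 females the median log2 difference was 0.80, and between the mean of the males of each group it was 0.32. With 1 female in each group, the sexes could not be tested apart. The colour map of 4 gene lists shows these values gene by gene.

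**Figure D1:**
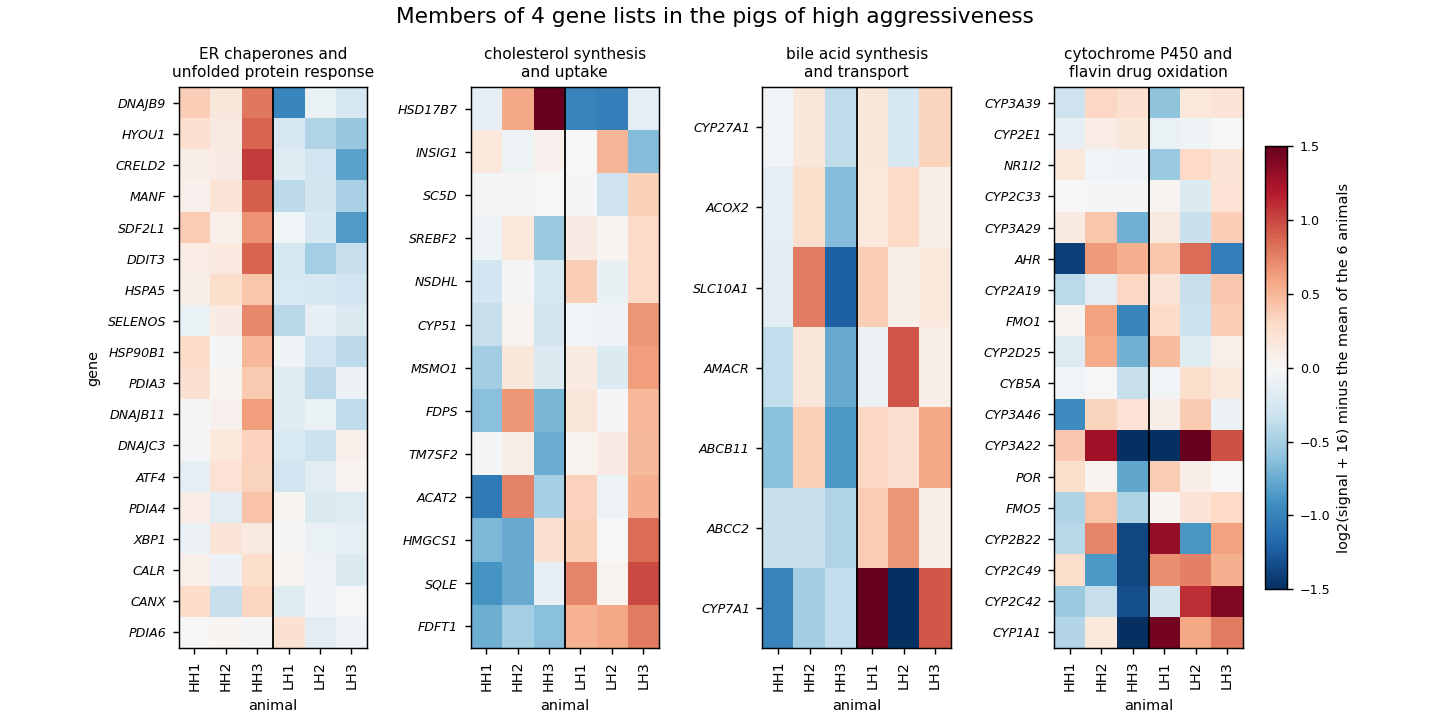
Each row is a gene and each column an animal, HH1 to HH3 (high stress response) left of the line and LH1 to LH3 (low stress response) right of it; colour is log2(signal + 16) minus the mean of the 6 animals, with the colour scale ending at ±1.5. Apart from XBP1 and PDIA6, the ER genes are higher in HH3 than in HH1 and HH2, and FDFT1 is blue in the 3 animals of high and red in the 3 of low stress response.

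Genes that carry proteins into and out of the ER leaned the same way but by less. Of 46 measured genes 37 had a log2 fold change above 0, against 51.6% of all genes, 6 were higher at an unadjusted p under 0.05 (3.58% of all genes) and 0 lower, and the median was 0.11. SEC23B, a coat protein of the vesicles that leave the ER, had 1499, 1763 and 3140 in the high and 1198, 1237 and 1175 in the low stress response group, a log2 fold change of 0.74 ± 0.22 (SE). HH3 lay far above the other 5 animals, and without it the value was 0.49. LRRC59, a membrane protein of the rough ER, had 0.65, and SRPRB, which anchors the receptor of the signal recognition particle, also had 0.65. Without LH3 the value for LRRC59 was 0.43, and without HH3 that for SRPRB was 0.39. SPCS2, a subunit of the signal peptidase, had weak signals of 99.3, 80.4 and 87.1 in the high and 8.6, 13.6 and 72.6 in the low group. LH1 and LH2 lay close to the bottom of the scale while LH3 came near the high group. ALG2, an enzyme of N-glycan assembly on the ER membrane that was not in the list, had 1100, 1141 and 1281 in the high and 618, 711 and 860 in the low group. Its log2 fold change was 0.68 ± 0.16 (SE, n = 3 each, limma, adjusted p = 0.795), while a weaker probe set of ALG2 had 0.27. In the males alone the median of the secretion list was -0.03 with 21 genes above 0, without HH3 it was 0.04 with 30, and without LH3 0.03 with 26. The genes at an unadjusted p under 0.05 numbered 2 without HH3, 3 without LH3 and 1 in the males.

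The acute phase list split into a few higher genes and many close to 0. CRP, C-reactive protein, a plasma protein of the inflammatory response, had signals of 16660, 23400 and 32540 in the high and 5638, 5334 and 5874 in the low stress response group. The 3 animals of low stress response were within a narrow band and every animal of high stress response lay far above it. The log2 fold change was 2.05 ± 0.39 (SE, n = 3 each, limma, adjusted p = 0.628), the largest among the 12 higher genes with the smallest p, and it stayed between 1.89 and 2.25 with each animal left out in turn. IL1R1, the signalling receptor of interleukin-1, had 2450, 2787 and 4260 in the high and 1512, 1556 and 1176 in the low group, a log2 fold change of 1.12 ± 0.24 (SE). A weaker second probe set of IL1R1 had 0.50. STAT3, the transcription factor through which interleukin-6 acts on hepatocytes, had 4913, 7064 and 7850 in the high and 3522, 3669 and 2698 in the low group, a log2 fold change of 0.99 ± 0.24 (SE). For both genes the groups did not overlap, with HH3 highest and LH3 lowest of the 6.

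LBP, the lipopolysaccharide-binding protein, had 8267, 9410 and 15470 in the high and 8474, 7041 and 2622 in the low stress response group. Its groups overlapped, and the log2 fold change of 0.98 was 0.41 without HH3 and 0.50 without LH3. A much weaker probe set of LBP had 0.24. The whole list of 21 measured genes had 10 above 0 and 11 below, 3 higher at an unadjusted p under 0.05 (3.58% of all genes) and 0 lower, and a median of -0.01. That split ran from 6 above and 15 below without LH2 to 17 above and 4 below without LH3, and was 15 and 6 without HH3 and 16 and 5 in the males. Genes of abundant plasma proteins were close to 0. HP (haptoglobin), TTR (transthyretin), C3 (complement component) and ALB (albumin), chosen after their values were seen, had log2 fold changes of -0.12, -0.07, 0.03 and -0.01. Their signals lay between 34420 and 61130 in the 6 animals, close to the top of the deposited scale. SOD2, a mitochondrial enzyme that removes superoxide, was not in this list but in that of metallothioneins and antioxidant enzymes. Of the 22 measured genes there 8 were above 0 and 14 below, with a median of -0.05. SOD2 alone had an unadjusted p under 0.05, so 1 was higher (3.58% of all genes) and 0 lower. It had 2994, 2631 and 5678 in the high and 2207, 2327 and 2387 in the low group. The groups did not overlap, but the log2 fold change of 0.62 was 0.39 without HH3. Complement and coagulation genes were 6 above 0 and 16 below, with 0 at an unadjusted p under 0.05 and a median of -0.05. This direction was not stable, with 16 above and 6 below in the males, 14 and 8 without HH3, 13 and 9 without LH3, and 10 and 12 after quantile normalization. In that list MBL2, mannose-binding lectin, had 2214, 4870 and 116 in the high and 2224, 3198 and 8484 in the low group, so that the 2 females held both extremes. Its log2 fold change of -1.80 ± 1.18 (SE) was 0.14 without HH3 and -0.94 without LH3.

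**Figure D2:**
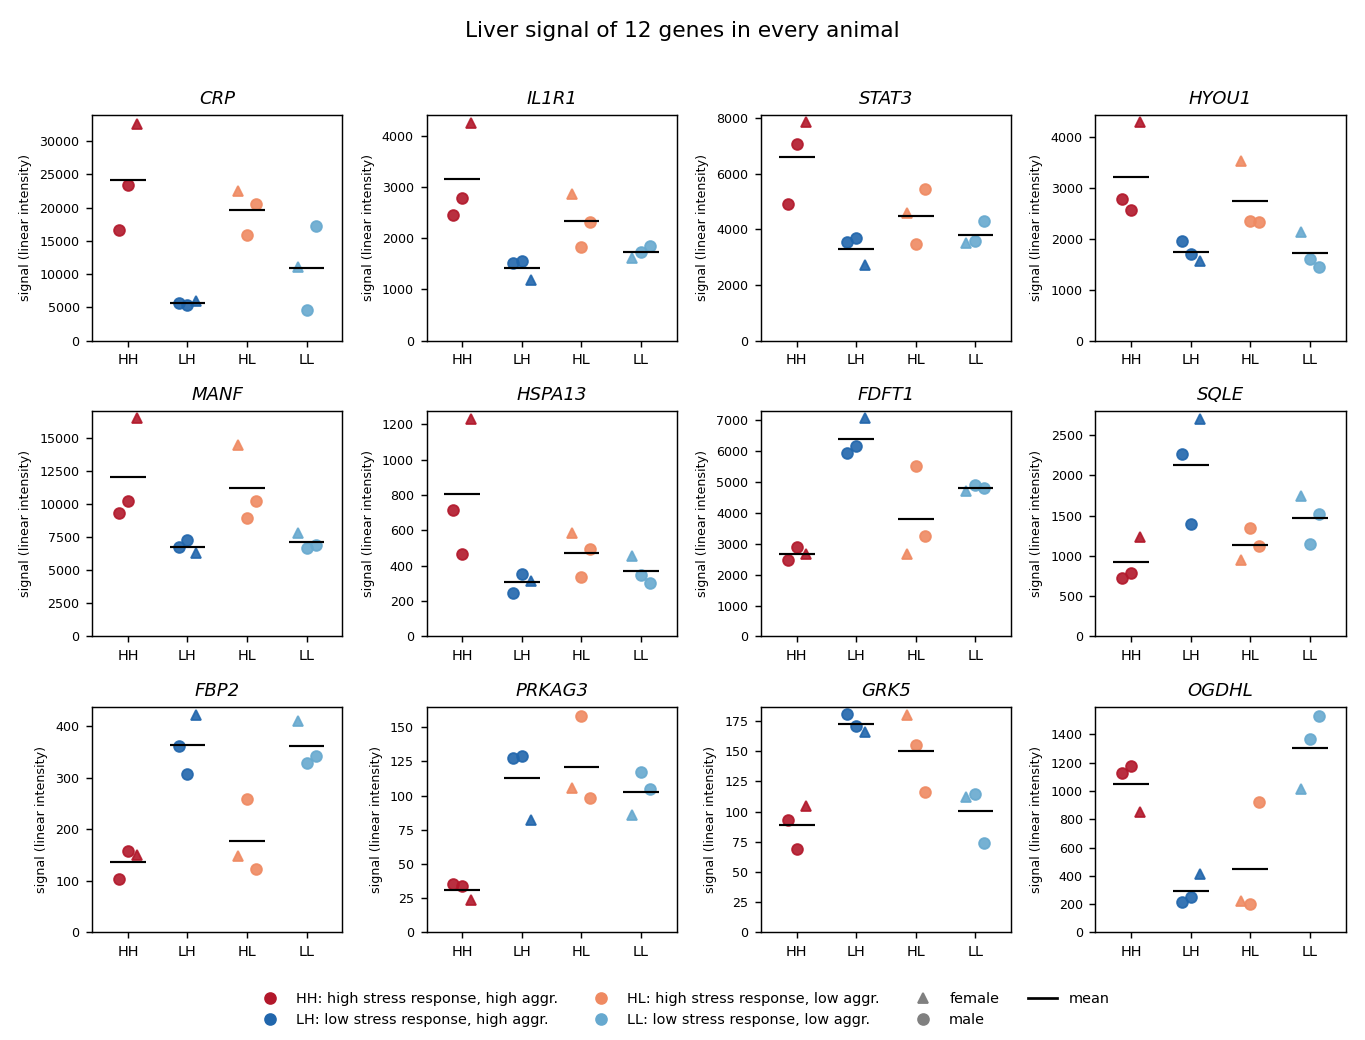
Signal of 12 genes in every animal, on linear axes from 0, with triangles for females, circles for males and lines for group means; HH and LH are the pigs of high aggressiveness with high and low stress response, HL and LL those of low aggressiveness. CRP lies at 5334 to 5874 in the 3 LH animals and at 16660 to 32540 in the 3 HH animals, and PRKAG3 lies at 23.6 to 35.7 in the 3 HH animals and at 82.5 or more in the other 9.

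Cholesterol synthesis leaned the other way. Of 13 measured genes 11 had a log2 fold change below 0, against 48.4% of all genes, with a median of -0.38, and 3 were lower (2.4% of all genes) and 1 higher (3.58%) at an unadjusted p under 0.05. The median was -0.24 without HH3 and -0.59 without HH2, with 11 genes below 0 in both. FDFT1, squalene synthase, had signals of 2480, 2899 and 2657 in the high and 5933, 6158 and 7069 in the low stress response group. Both groups were tight and far apart, and the log2 fold change was -1.25 ± 0.24 (SE, n = 3 each, limma, adjusted p = 0.628), between -1.32 and -1.09 with each animal left out in turn. SQLE, squalene epoxidase, the next enzyme of the pathway, had 729, 793 and 1241 in the high and 2267, 1402 and 2703 in the low group, a log2 fold change of -1.18 ± 0.27 (SE). Its groups did not overlap either, though HH3 came close to LH2. HMGCS1, which makes the HMG-CoA that feeds the pathway, had 415, 391 and 798 in the high and 866, 669 and 1212 in the low group, and there HH3 lay inside the low group.

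HSD17B7, which acts further down the pathway and also on steroid hormones, had the opposite direction, with 2125, 3458 and 7681 in the high and 1156, 1140 and 2128 in the low stress response group. Its groups met, since LH3 reached the level of HH1, and the log2 fold change was 1.43 ± 0.54 (SE). The other 9 genes had values between -0.54 and 0.09. The list score was -0.30, 0.12 and -0.05 in the high and 0.23, 0.06 and 0.53 in the low group, so HH2 overlapped with LH2. Between the 2 females the median log2 difference was -0.85, and between the males it was -0.14.

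Bile acid genes, for synthesis and for transport, had 7 of 7 measured members below 0, against 48.4% of all genes. Their median was -0.63 on the log2 scale, and 2 were lower at an unadjusted p under 0.05 (2.4% of all genes), which was 1 from the 6 arrays alone and 1 to 4 with an animal left out. ABCC2, an export pump of the canalicular membrane for conjugates and bilirubin glucuronides, had 579, 579 and 534 in the high and 965, 1178 and 784 in the low stress response group. The 3 animals of high stress response were nearly equal and all lay below the low group, with a log2 fold change of -0.76 ± 0.23 (SE). ABCB11, the bile salt export pump, had 133, 275 and 109 in the high and 267, 254 and 321 in the low group. HH2 lay among the low group, and the log2 fold change of -0.75 was -0.47 without HH3. CYP7A1, the rate-limiting enzyme of bile acid synthesis, was chosen after its values were seen. It had 29.2, 47.4 and 54.3 in the high and 601, 10.1 and 157 in the low group, a log2 fold change of -1.26 ± 1.06 (SE), so the low group spanned the whole range, and without LH1 the value was 0.05. Without HH3 the list had 5 genes below 0 and 2 above. The count of 7 also depends on the probe set taken for ACOX2. Its strongest one had -0.35 ± 0.20 (SE) and a weaker one had 0.64 ± 0.28 (SE).

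Enzymes of drug oxidation had their lowest list score in HH3, -0.59, against -0.19 in HH1, 0.27 in HH2 and 0.14 to 0.34 in the 3 pigs of low stress response. Of 18 measured cytochrome P450 and flavin oxidation genes 15 were below 0, with a median of -0.24 and 3 lower at an unadjusted p under 0.05 (2.4% of all genes). Without HH3, and also without LH3, 1 was lower. CYP2C49, a liver P450 of the 2C family, had 22460, 10280 and 7245 in the high and 30320, 31570 and 27040 in the low stress response group, a log2 fold change of -1.32 ± 0.40 (SE). The groups did not overlap and the spread was wide in the high group. CYP2C42 of the same family had 389, 456 and 224 in the high and 478, 1268 and 1553 in the low group. CYP1A1, the P450 induced through the aryl hydrocarbon receptor, had 108, 173 and 13.7 in the high and 443, 236 and 274 in the low group, also without overlap. Without HH3 the log2 fold changes of CYP2C42 and CYP1A1, -1.48 and -1.86, were -0.90 and -1.07. A weaker probe set of CYP2C42 had -0.77. EPHX1, the microsomal epoxide hydrolase, was not in this list but in that of conjugation and phase II enzymes. Of the 13 measured genes there 4 were above 0 and 9 below, with a median of -0.26 that was -0.05 in the males. EPHX1 alone had an unadjusted p under 0.05, so 1 was lower (2.4% of all genes) and 0 higher. EPHX1 had 9518, 10310 and 5626 in the high and 14140, 13960 and 14170 in the low group. Its low group was nearly constant, and the log2 fold change of -0.78 was -0.45 without HH3. In the males the median of the P450 list was -0.08, with 8 genes above 0 and 10 below.

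**Figure D3:**
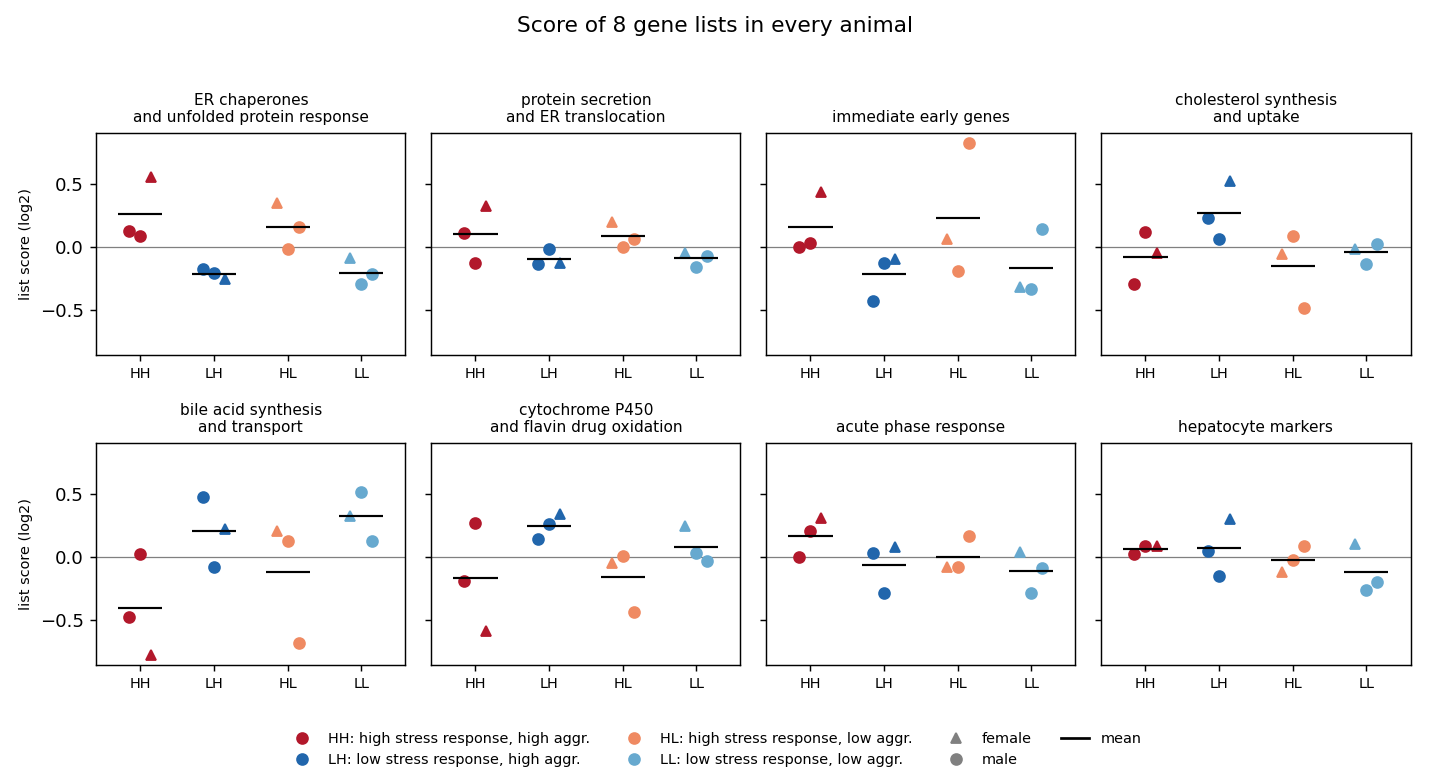
Each point is an animal's list score, the mean over the genes of the list of log2(signal + 16) minus the gene's mean over the 12 arrays; HH is left of LH and HL left of LL, lines are group means and triangles females. In the ER list the 3 HH animals (0.09 to 0.56) lie above the 3 LH animals (-0.26 to -0.18), while hepatocyte markers overlap between the groups.

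Lipid genes varied between animals. FADS1 and FADS2, the desaturases that make long unsaturated fatty acids, had log2 fold changes of -2.03 ± 0.74 and -1.72 ± 0.74 (SE). FADS1 had 209, 707 and 180 in the high and 918, 948 and 2398 in the low stress response group, and FADS2 had 132, 228 and 111 in the high and 493, 735 and 419 in the low group. Neither gene overlapped between the groups, but HH2 in FADS1 came near LH1. DGAT2, which completes triglycerides, had 4147, 4106 and 983 in the high and 6941, 3733 and 4980 in the low group, and its log2 fold change of -0.98 was -0.32 without HH3. The list for making fatty acids and triglycerides had 11 of 16 members below 0 and a median of -0.24, which was 0.01 in the males. FABP1, the liver fatty acid-binding protein, had 33340, 26160 and 20530 in the high and 41410, 30550 and 42210 in the low group. The groups overlapped and the value of -0.53 was -0.29 without HH3. Of 22 genes of fatty acid oxidation 16 were below 0, with a median of -0.24 that was -0.04 without HH3.

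Among genes of fuel use, PRKAG3 had the smallest adjusted p. PRKAG3 encodes a regulatory subunit of AMP-activated protein kinase known mainly from skeletal muscle. It had signals of 35.7, 33.7 and 23.6 in the high and 128, 129 and 82.5 in the low stress response group. The groups were well apart at a weak signal, with a log2 fold change of -1.44 ± 0.18 (SE, n = 3 each, limma, adjusted p = 0.0776), between -1.53 and -1.41 with each animal left out in turn. FBP2, the fructose bisphosphatase known from muscle, had 103, 158 and 150 in the high and 362, 308 and 421 in the low group, a log2 fold change of -1.32 ± 0.26 (SE). Its groups did not overlap. The other 16 genes of gluconeogenesis and glycogen lay between -0.46 and 0.29, and PCK1, the regulated enzyme of gluconeogenesis, had 25900, 27980 and 24970 in the high and 26450, 26690 and 26840 in the low group, a log2 fold change of -0.02.

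Enzymes that break down amino acids were mixed. SDS, serine dehydratase, which turns serine into pyruvate, had 551, 1466 and 1952 in the high and 215, 286 and 204 in the low stress response group. The lowest animal of high stress response, HH1, lay above all 3 of low, with a log2 fold change of 2.25 ± 0.78 (SE, n = 3 each, limma, adjusted p = 0.801) that was 1.46 without HH3. ARG1, arginase, the last enzyme of the urea cycle, had 20950, 19800 and 19170 in the high and 16520, 15710 and 8622 in the low group. LH3 was far the lowest, and the log2 fold change of 0.61 was 0.41 without it. TAT, tyrosine aminotransferase, a classical glucocorticoid target, had 5787, 11320 and 4990 in the high and 6441, 10890 and 6664 in the low group, with HH2 and LH2 highest and no separation. Its log2 fold change of -0.17 ran from -0.51 without LH1 to 0.16 without LH3, and a second probe set of TAT had 0.13. Of 17 measured genes 11 were above 0, with a median of 0.12, and 5 did not overlap, all higher in the high group, against 6.63% of all genes. The median was 0.05 without HH2 and 0.25 without HH3.

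The genes of glucocorticoid action did not separate the groups as a list. NR3C1, the glucocorticoid receptor, had 96.9, 107 and 242 in the high and 99.6, 132 and 180 in the low stress response group, a log2 fold change of 0.03 ± 0.27 (SE) that was -0.28 without HH3. A second probe set of NR3C1 had mean signals of 205 in the high and 134 in the low group and a log2 fold change of 0.62 ± 0.42 (SE). FKBP5, a receptor co-chaperone induced by glucocorticoids, had 162, 116 and 465 in the high and 137, 364 and 153 in the low group. Its highest value was in HH3 and the next in LH2, and the log2 fold change was 0.07 with all animals and -0.69 without HH3, with 0.06 on a weaker probe set. PER1, a clock gene with glucocorticoid response elements, had 0.08 and TSC22D3 (GILZ), another target of the receptor, had -0.44. SERPINA6, corticosteroid-binding globulin, had 2412, 5080 and 1359 in the high and 2901, 4294 and 5611 in the low group, and its value of -0.69 was -0.06 without HH3.

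Within the list of receptors and hormone handling, HSD11B1, which regenerates active cortisol inside hepatocytes, had 26740, 30290 and 20170 in the high and 34500, 31540 and 36870 in the low stress response group. The groups did not overlap, and the log2 fold change of -0.43 ± 0.19 (SE) was -0.22 without HH3. AKR1C1, a steroid reductase, had 101, 228 and 143 in the high and 326, 322 and 293 in the low group, a log2 fold change of -0.99 ± 0.27 (SE). GRK5, a kinase that desensitises adrenergic and other G protein-coupled receptors, had 92.8, 69.3 and 105 in the high and 181, 171 and 166 in the low group, a log2 fold change of -0.86 ± 0.20 (SE). Both were weak signals whose groups did not overlap. The high group of AKR1C1 spread widely, and its log2 fold change ran from -1.30 without HH2 to -0.74 without HH1. Of the 13 genes measured, 6 were above 0 and 7 below with a median of -0.05, and 4 were lower without overlap, against 4.86% of all genes. Of 20 glucocorticoid-induced genes 10 were above 0 and 10 below, with a median of 0.02. At an unadjusted p under 0.05, 2 were higher (3.58% of all genes), SDS and GADD45B, and 0 lower. GADD45B, a stress-inducible growth arrest gene, had 345, 373 and 439 in the high and 229, 206 and 251 in the low group and 0.71 ± 0.21 (SE). A second probe set of GADD45B had 1.05. With MT1A, 3 genes were higher without overlap, against 6.63% of all genes. MT1A, a metallothionein, had 44490, 44630 and 47110 in the high and 36470, 36810 and 42500 in the low group, and 0.24 ± 0.14 (SE). NFIL3, a repressor that feeds into the clock, had 1804, 1656 and 1976 in the high and 1288, 1342 and 1284 in the low group, a log2 fold change of 0.47 ± 0.16 (SE).

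Immediate early genes, which respond within minutes to many stimuli, handling included, were 16 of 18 above 0 with a median of 0.39, but 0 had an unadjusted p under 0.05. That count depended on the fit. From the 6 arrays alone, 3 genes were higher at such a p with sex in the fit and 2 without it. In 3 genes the high stress response group lay above the low without overlap, against 6.63% of all genes. ZFP36, which destabilises cytokine transcripts, had 696, 853 and 1375 in the high and 446, 491 and 675 in the low stress response group. The groups did not overlap and HH1 was close to LH3. Without HH3 the median of the list was 0.14. The cytosolic heat shock genes, the other arm of protein folding, were 12 above 0 and 4 below with a median of 0.07 and 0 at an unadjusted p under 0.05.

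Lists of basic cell machinery had medians near 0. Ribosomal protein genes were 52 of 58 below 0, but by a median of only -0.07, and after quantile normalization 33 were below and 25 above. Genes of oxidative phosphorylation were 41 of 54 below 0 with a median of -0.10, with 3 higher (3.58% of all genes) and 0 lower at an unadjusted p under 0.05. That count was 0 from the 6 arrays alone, and also without HH1 and without HH3. The proteasome had 17 genes above and 17 below 0. Interferon-stimulated genes were 18 of 24 above 0, with a median of 0.09 and 0 at an unadjusted p under 0.05. Cell cycle genes were 12 above and 8 below 0, with a median of 0.13 that was -0.02 without LH2 and -0.01 without LH3. Of these 20 genes 1 was higher (3.58% of all genes) and 1 lower (2.4%) at an unadjusted p under 0.05, which is close to those shares. RAD54L, a factor of homologous recombination, had 102, 83.9 and 135 in the high and 17.5, 49.7 and 14.4 in the low stress response group, a log2 fold change of 1.58 ± 0.39 (SE). MCM3, a subunit of the helicase that opens DNA for replication, had 24.7, 9.8 and 69.0 in the high and 67.5, 61.3 and 131 in the low group, a log2 fold change of -1.14 ± 0.32 (SE). HH3 lay among the low group for MCM3, while for RAD54L the groups did not overlap. The signals of RAD54L in LH1 and LH3 and of MCM3 in HH2 lay near or below the added constant of 16. The log2 fold changes of both genes therefore have no firm size.

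The remaining genes with the smallest p belonged to no list. ABCD4, a transporter linked to the lysosomal handling of cobalamin, had 1025, 785 and 915 in the high and 399, 300 and 288 in the low stress response group, a log2 fold change of 1.43 ± 0.30 (SE, n = 3 each, limma, adjusted p = 0.746). The groups were well apart, while 2 weaker probe sets of ABCD4 had 0.14 and 0.34. STK19 had 365, 658 and 1205 in the high and 171, 181 and 232 in the low group. Its 3 low animals were close together and the high group spread widely, and a second probe set had 0.34 against 1.70. THAP1, a DNA-binding factor, had 193, 220 and 139 in the high and 125, 85.8 and 63.6 in the low group. PLCD1, a phospholipase C, had 237, 209 and 245 in the high and 575, 367 and 546 in the low group, a log2 fold change of -1.03 ± 0.18 (SE, limma, adjusted p = 0.628). A second, much weaker probe set of PLCD1 had -0.20. TREX2, an exonuclease, and ABHD18 had -0.73 and -0.93, and LOC100515166, to which the array's table gives no name, had -1.17.

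For several genes with the smallest p, other probe sets gave smaller values. The ZNF281 probe set with an adjusted p of 0.0776 had 29.4, 22.2 and 19.9 in the high and 129, 136 and 70.7 in the low stress response group, a log2 fold change of -1.65 ± 0.20 (SE, n = 3 each, limma). ZNF281 encodes a zinc finger transcription factor, and its 5 other tested probe sets had log2 fold changes from -0.08 to 0.11. EVL, a regulator of actin filaments, had 18.1, 8.0 and 7.7 in the high and 81.1, 82.0 and 103 in the low group on 1 probe set, and a log2 fold change of -0.50 on a stronger one. The high group's signals on the first probe set of EVL lay near or below the added constant, so its log2 fold change has no firm size: it was -1.96 with 16 added, -2.96 with 1 and -1.02 with 64. For FTSJ3, a factor of ribosomal RNA processing, probe sets of similar signal had 0.76 and 0.09. For SEPT7, a septin, the probe set with the small p had 1.04 and 3 others had -0.13 to 0.15. FCGR3A, an Fc receptor of natural killer cells and macrophages, had -1.13 on a weak probe set and 0.27 on the strong one. Which transcript forms these probe sets read was not tested.

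Markers of other liver cells differed between lists in whether the summed signals of the groups overlapped. Kupffer cell and macrophage markers were 5 of 8 above 0, with a median of 0.11 and summed signals of 22350 to 29500 in the high and 21120 to 25710 in the low stress response group. CD163, a scavenger receptor of macrophages, had 1692, 1837 and 2587 in the high and 1400, 1170 and 954 in the low group, a log2 fold change of 0.78 ± 0.25 (SE), with 0.58 on a weak second probe set. MARCO, another macrophage receptor, had 30.2, 21.9 and 36.7 in the high and 60.8, 75.8 and 99.6 in the low group, a log2 fold change of -1.05 ± 0.35 (SE), so the 2 macrophage genes with the smallest p lay on opposite sides. All 6 neutrophil markers were above 0 with a median of 0.31, none at an unadjusted p under 0.05. Their summed signals were 4587 to 5667 in the high and 3343 to 5299 in the low group, and their part in the values for CRP, IL1R1 and SOD2 was not tested. Most of these sums came from FCGR3A, which natural killer cells and macrophages also carry. It had 3792, 4753 and 4587 in the high and 4514, 2816 and 3687 in the low group. The weak FCGR3A probe set, not counted here, had -1.13. Endothelial markers were 6 of 7 below 0 (median -0.19) and stellate cell markers 10 of 11 (median -0.10), with 0 at an unadjusted p under 0.05 in either list. Lymphocyte markers were 5 of 6 below 0 (median -0.07) and the 4 red cell markers were all above 0 (median 0.34), with HH1 highest. Of 7 cholangiocyte markers 4 were above 0, with summed signals of 15480 to 35110 in the high and 12690 to 14570 in the low group, which did not overlap. Most of these sums came from KRT8, KRT18 and CLDN4. The list score, which weighs genes equally, did overlap, with -0.15, 0.15 and 0.13 in the high and -0.34, -0.01 and -0.02 in the low group. The part of these cells in other results was not tested. KRT18, a keratin that hepatocytes also make, had 4693, 6503 and 14870 in the high and 4302, 3270 and 2891 in the low group, a log2 fold change of 1.16 that was 0.73 without HH3. Its partner KRT8 had 0.60, 0.32 without HH3 and 0.36 without LH3, while KRT19, the keratin of bile ducts, had 6.0, 71.1 and 13 in the high and 6.6, 77.0 and 121 in the low group.

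The same contrast in the 6 pigs of low aggressiveness, other animals altogether, gave 0 probe sets at an adjusted p under 0.05 in limma (smallest 0.118), 816 at an unadjusted p under 0.05 (5.11%) and 153 under 0.01 (0.959%). Of the 182 probe sets at an unadjusted p under 0.01 in the aggressive pigs, 113 (62.1%) had the same sign in the others, against 55.8% of all probe sets, and 9 were under 0.01 in both, 6 of them with the same sign. Across probe sets the log2 fold changes of the contrasts correlated weakly (Pearson r = 0.15, Spearman rho = 0.16), which is a description across genes that are not independent. The ER list had 18 of 18 genes above 0 there as well, against 56.6% of all genes, 7 at an unadjusted p under 0.05 (2.9% of all genes in that direction) and a median of 0.34. Bile acid genes had -0.56, cholesterol genes -0.25 and immediate early genes 0.37. CRP had 1.02 there, against 2.05 in the aggressive pigs.

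**Figure D4:**
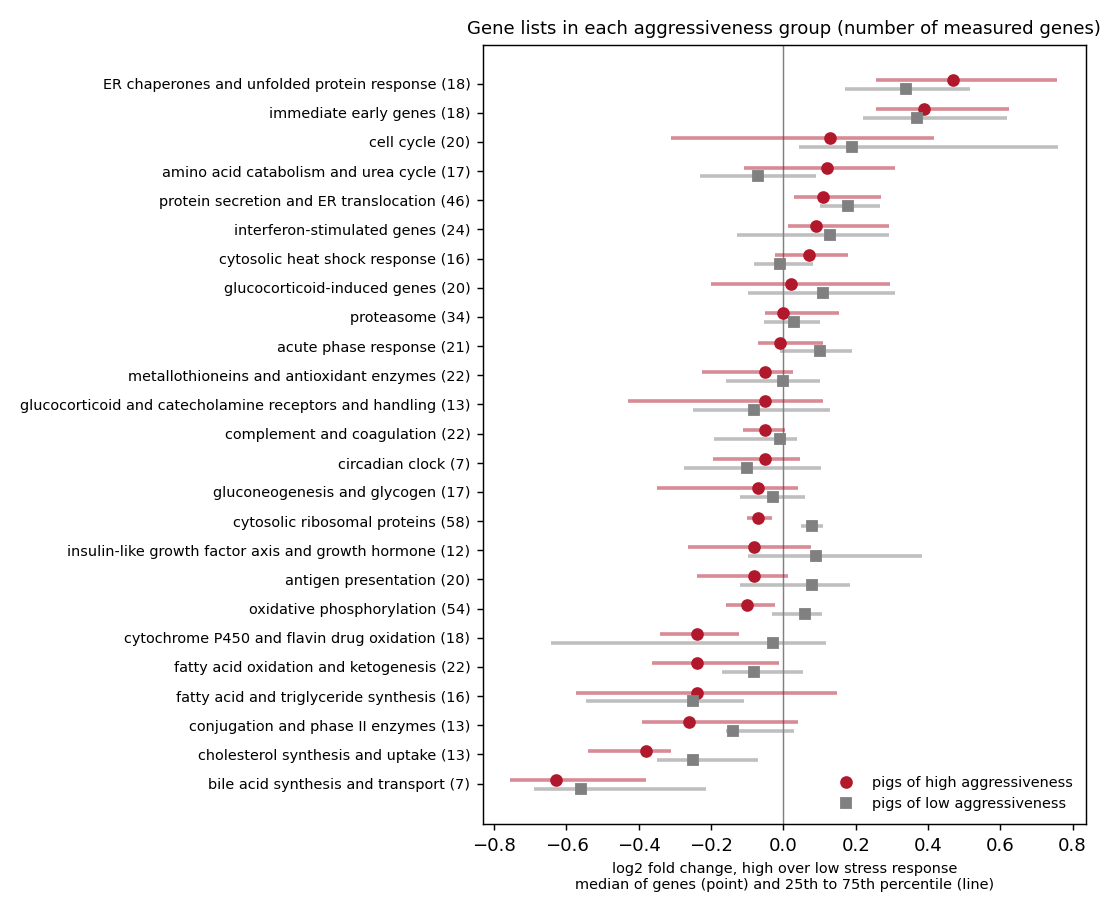
Median log2 fold change of each pathway list, high over low stress response, as circles for the pigs of high and squares for those of low aggressiveness; lines run from the 25th to the 75th percentile of the genes in the list. The bile acid list is lowest in both (-0.63 and -0.56), and the ER list (0.47 and 0.34) and the immediate early list (0.39 and 0.37) are the highest pair in both.

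The difference between the contrasts was tested in the same fit, and 0 probe sets had an adjusted p under 0.05 (limma, smallest 0.563), with 615 at an unadjusted p under 0.05 (3.85%) and 101 under 0.01 (0.633%). PRKAG3 was lower with high stress response in the aggressive pigs but not in the others, with 105, 158 and 98.3 in HL1 to HL3 and 85.9, 117 and 105 in LL1 to LL3. The difference of its log2 fold changes was -1.63 ± 0.26 (SE, n = 3 in each of 4 groups, limma, adjusted p = 0.563). OGDHL, a subunit related to 2-oxoglutarate dehydrogenase, had 1130, 1174 and 851 in HH and 216, 249 and 412 in LH pigs, against 219, 198 and 921 in HL and 1015, 1367 and 1529 in LL pigs. Its log2 fold change was 1.83 in the aggressive pigs and -1.85 in the others, a difference of 3.68 ± 0.68 (SE, limma, adjusted p = 0.760), and only HL3 lay apart from its group.

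RGS16, a brake on G protein signalling, had 119, 83.4 and 57.0 in HH and 106, 33.1 and 21.2 in LH pigs, and 7.6, 16.6 and 13.4 in HL and 67, 77.3 and 78.0 in LL pigs, a difference of 2.38 ± 0.44 (SE). In it the low aggressiveness groups were well apart and the high aggressiveness groups overlapped. The signals of RGS16 in HL pigs lay near or below the added constant of 16, so its difference has no firm size. IGFBP6, a binding protein of insulin-like growth factors, differed by -2.03 ± 0.45 and GNG3, a G protein subunit, by -1.86 ± 0.42 (SE). For both the larger change was in the pigs of low aggressiveness. IGFBP6 had -0.54 in the aggressive and 1.49 in the other pigs, and GNG3 had -0.40 and 1.46. The signals of GNG3 were weak, with 12.6, 31.4 and 5.9 in LL pigs. GRK5 differed by -1.38 ± 0.29 (SE), with log2 fold changes of -0.86 in the aggressive and 0.51 in the other pigs. CREB1, the transcription factor activated by cyclic AMP, had -1.05 and 0.73 at signals of 8.7 to 107 in the 12 animals. LOC100515166 differed by -1.95, the weak ZNF281 probe set by -1.93, ITIH5, a matrix protein of the inter-alpha-trypsin inhibitor family, by -0.89, and STN1, a telomere maintenance factor, by 0.83. ITIH5 had -0.17 in the aggressive and 0.72 in the other pigs, and STN1 had 0.21 and -0.62. In the ER list 1 of 18 genes, DNAJB9, had an unadjusted p under 0.05 for the difference, against 3.05% of all genes, with 0.89 in the aggressive pigs and 0.07 in the others. That gap was smaller on its weaker probe sets. A second one had 0.94 in the aggressive pigs and 0.30 in the others, and another had 0.45 and 0.42.

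**Figure D5:**
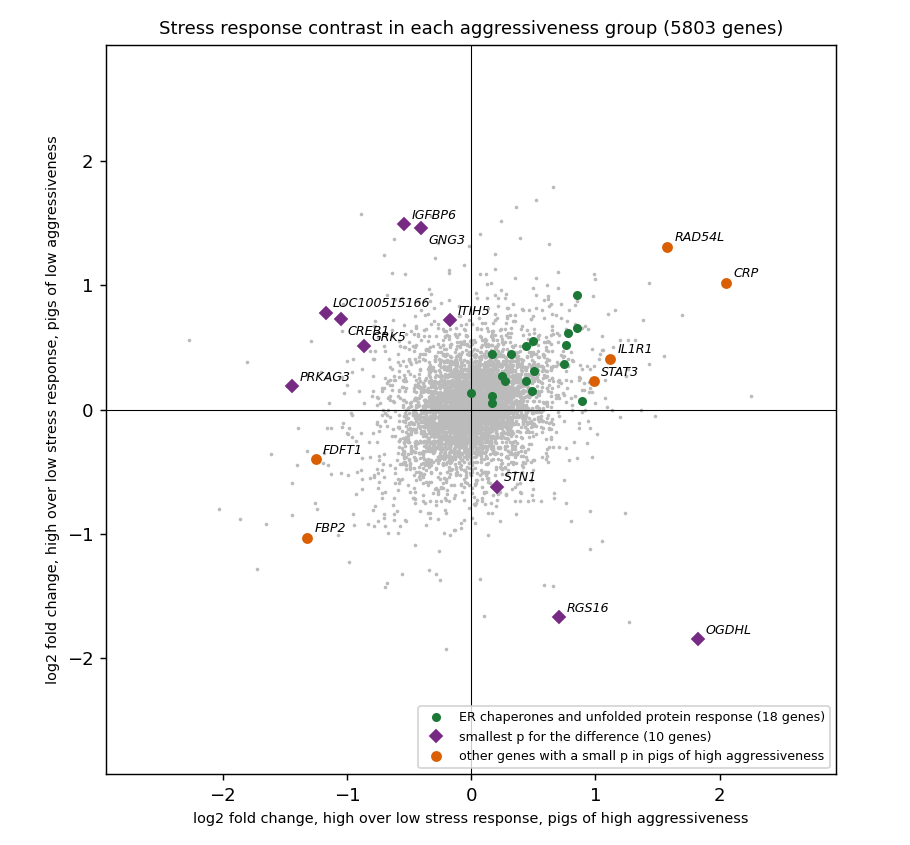
Each grey point is 1 of 5803 genes, with its log2 fold change of high over low stress response in the pigs of high aggressiveness on the x axis and in those of low aggressiveness on the y axis. The 18 ER genes (green) lie at or above 0 on both axes, and OGDHL (1.83 and -1.85) lies farthest into the lower right quadrant of the 10 genes with the smallest p for the difference (purple); orange points are other genes with a small p in the pigs of high aggressiveness.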

How the data were processed

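Liver RNA of 12 pigs was measured on 1 Affymetrix porcine array each. The deposited values are probe set signals, a linear intensity that the authors made with GCOS 1.1.1, per the submitters' processing notes. How probes were summarised is not given in the sources used here. The mean signal after trimming 2% at each end was 500.2 on every array, so arrays had been scaled before deposit, and values were used as deposited. Such a scaling fixes each array's trimmed mean and can hide a shift of all genes.

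From 24123 probe sets 188 controls were removed, and the dimmest 33.3% of the other 23935 were then dropped by mean signal, leaving 15957 with a mean of at least 40.9. The array's table gave 10099 probe sets 1 symbol, 198 several and 13826 none; the last 2 kinds stayed in the test but were not named. RefSeq's gene table held 9989 of the 10099 gene IDs, and 0 symbols differed from it. Values of log2(signal + 16) of all 12 arrays were fitted with limma 3.58.1 (R 4.3.3), using group means and sex (7 residual degrees of freedom), and p-values were adjusted by Benjamini and Hochberg over all probe sets tested.

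The members, gene lists and tests were chosen with earlier results of these data known. Named were the 12 higher and 12 lower genes with the smallest p, since none passed the threshold by which size would have ranked them; up to 4 members of each list with the smallest p; 8 genes of glucocorticoid action; and the 10 genes, each by its strongest probe set, with the smallest p for the difference between aggressiveness groups. Genes outside this rule are marked. Array measures were compared by exact permutation. Alternatives were the 6 arrays alone with and without sex, 12 arrays without sex, males only, quantile normalization, median centring, no filter, a filter on the dimmest 50%, added constants of 1 and 64, trend and robust variances, array weights, the mean over a gene's probe sets, and each of the 6 animals left out. The fit was checked on simulated data. Figures were drawn with matplotlib 3.10.9.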

Additional observations from a re-analysis of the deposited data

How the results depend on the processing

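No paired analysis was possible because the labels give the groups no shared replicate numbers. With a constant of 1 added, and with array weights, 2 probe sets passed an adjusted p under 0.05 (PRKAG3 and the weak ZNF281 one, at log2 fold changes of -1.83 and -2.14 with the constant of 1), and 0 did in the other alternatives tested over probe sets. With the mean over a gene's probe sets, which tests fewer features, PRKAG3 passed at -1.44. Without LH1 1 probe set, that of RGS16, passed for the difference of the contrasts, and 0 did without any of the other 5 animals. Counts at an unadjusted p under 0.01 were 103 in males only (58 higher, 45 lower), 301 without a filter (146 lower), and 73 higher from the 6 arrays alone without sex. They ran from 103 to 277 with 1 animal left out (44 to 153 higher, 42 to 124 lower). For the difference of the contrasts 241 were found without a filter. The share of higher among these was 60.4%, against 47.6% after median centring, 42.7% without HH3, 49.8% without HH1 and 70.4% without LH3.

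In males only the list medians were -0.14 (cholesterol), -0.03 (fatty acid oxidation), -0.03 (secretion) and -0.04 (Kupffer cells). With the lowest 50% left out, hormone handling had -0.26. Leaving out 1 animal gave -0.31 to -0.04 for fatty acid oxidation, -0.22 to -0.02 for hormone handling, -0.31 to 0.09 for the clock, -0.01 to 0.06 for the proteasome and -0.05 to 0.12 for Kupffer cells. Genes that turned sign were NR3C1 (-0.15 in males, -0.01 with median centring and -0.01 with array weights, -0.28 to 0.19 leaving out 1 animal), PER1 (-0.09 in males, -0.05 with weights, -0.13 to 0.34), FKBP5 (-0.65, -0.12, -0.69 to 0.50), PCK1 (0.02 in males, 0.05 with quantile normalization, -0.07 to 0.03), MBL2 (0.30 in males, -2.88 to 0.14), TAT (-0.51 to 0.16), CYP7A1 (-2.38 to 0.05) and the strong FCGR3A probe set (-0.43 as the gene's mean). The cause was not tested. With 3 animals a group, 1 female in each, and no gene passing the adjusted test, the number of arrays limits every comparison, and weak signals near the bottom of the scale depend on the added constant.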
